A study of Mus musculus with 35 samples.

Results

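A single 6 h inhalation of 5 ppm styrene was compared with clean air (0 ppm) in whole mouse lung. The comparison took the 5 arrays labelled 5 ppm and the 5 arrays labelled 0 ppm, 10 of the 35 arrays of a series that also covered 1, 10, 20, 40 and 120 ppm with 5 arrays each, which the labels call biological replicates. All animals were adult wild-type male C57BL/6 mice from Taconic. Each was killed with pentobarbital and exsanguination on the morning after exposure, and the labels name no other agent. The 0 ppm mice breathed air alone in the same kind of individual wire-mesh cage. Total RNA of the whole lung was hybridised to Affymetrix HT MG-430 PM arrays, whose deposited values are log2 signals. A log2 difference of 1 is a doubling of signal. All 17097 genes with a probe set of their own were tested, each by its brightest probe set, with limma over all 35 arrays. The titles of 5 ppm replicate 1 and 1 ppm replicate 5 carry the same number, 15. Their profiles correlated at 0.984 over genes, below the highest value within the 5 ppm group, 0.996, and they were kept as separate samples.

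Styrene is a volatile aromatic hydrocarbon. In mouse lung it is oxidised mainly in club cells, the secretory cells of the small airways, by cytochrome P450 enzymes such as Cyp2f2. Interferons are secreted proteins that act through cell surface receptors, the kinases Jak1 and Tyk2 and factors such as Stat2 and Irf9, which bind an element called ISRE in the promoters of antiviral genes. E2F factors likewise bind a short promoter site in genes of DNA replication.

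The surfactant gene Sftpc averaged 13.81 at 5 ppm and 13.83 at 0 ppm on the log2 scale, and Scgb1a1, the main secretory protein of club cells, averaged 13.88 and 13.90. Such bright genes lie near the top of the array's range, where differences can be compressed. The lower and upper quartiles, control levels and 3' minus 5' control differences of the arrays did not pass an exact permutation test between the groups, with p of 0.151 to 0.889. The array median was 5.98 ± 0.0352 at 5 ppm and 5.93 ± 0.0154 at 0 ppm (SD, n = 5 each), which gave p = 0.0159 (two-sided exact permutation test, 0.143 after adjustment over 9 measures, smallest possible 0.00794). The 22 lists of cell type markers, with 189 measured entries, had 0 past the threshold at 5 ppm by limma and 16 at an unadjusted p under 0.05. Over all 17097 genes, 1103 had an unadjusted p under 0.05 in this comparison. Some marker lists still leaned in a single direction. All 12 ciliated cell markers had positive differences (median 0.24), against 0 of 12 endothelial markers (median -0.13) and 1 of 10 alveolar type 1 markers (median -0.05). The mean over 10 hepatocyte markers ran from 4.64 to 5.59 on the 5 ppm arrays, and at 0 ppm it was 9.17 in replicate 3, 8.15 in replicate 4 and 4.69 to 5.09 on the other arrays. Counts below are also given without the arrays above 7 on this measure, 2 at 0 ppm, 1 at 1 ppm and 1 at 20 ppm, where that moved them by more than 1.5 times. In whole lung, fewer cells of a type and less RNA per cell cannot be told apart.

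At 5 ppm 194 genes (1.13% of those tested) were higher than at 0 ppm and 4 (0.0234%) were lower, at an adjusted p under 0.05. Among the higher genes were many antiviral genes that interferon induces and a smaller set from the DNA replication machinery. Others were 4 genes of mitosis, 5 targets of the antioxidant factor NRF2, 2 glutathione transferases, 4 sterol synthesis genes and 1 gene of mucus folding. Of the 194, 45 stood in 6 lists of interferon-induced genes, 15 in 3 lists of DNA replication and nucleotide supply genes and 98 in none of the 71 lists. Their median log2 difference was 0.90, against 0.00 over all genes, and 80 of them exceeded 1. On 173 of the 194, every 5 ppm array lay above every 0 ppm array, which held for 2.08% of all genes. The 194 were picked on these same arrays, so neither their median nor this count is separate support for the rises. The largest difference, 3.75, belonged to a gene with a provisional name, which is not described further. Without the arrays with high hepatocyte markers 142 were higher and 4 lower. In that fit 21 named genes no longer passed, while their log2 differences were 0.869 to 1.13 times those with every array in.

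**Figure D1:**
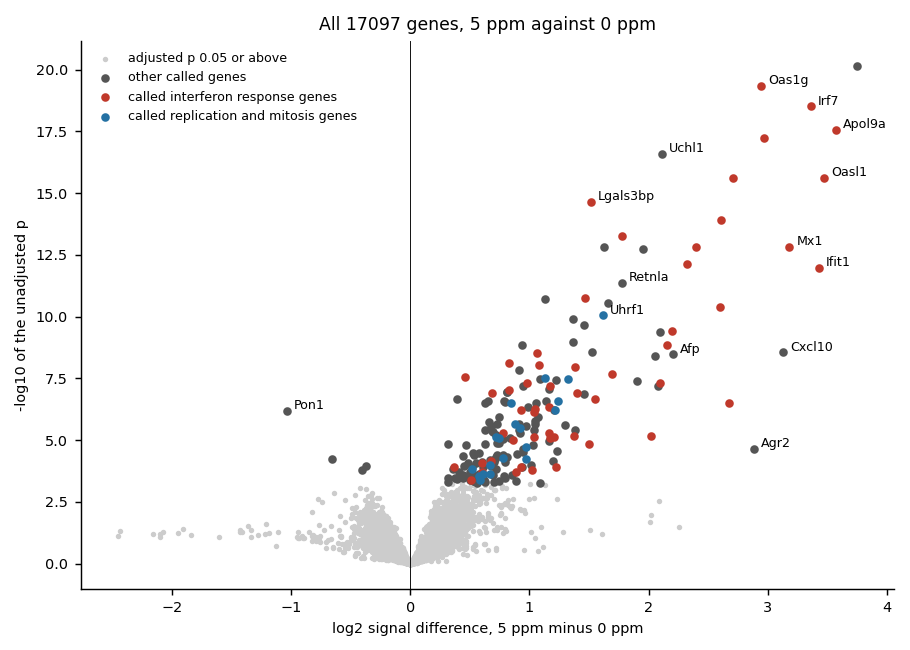
Each point is 1 of the 17097 genes; the x axis is the log2 signal difference, 5 ppm minus 0 ppm, and the y axis is −log10 of the unadjusted p. Red marks called interferon response genes, blue marks called replication and mitosis genes, and dark grey other called genes; nearly all called genes, 194 of 198, lie to the right of 0.

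At 1 ppm 0 genes (0%) passed against 0 ppm by limma, the smallest adjusted p being 0.105, and 1190 had an unadjusted p under 0.05. Along the first principal component of the arrays from 0 to 40 ppm, which held 26.4% of the variance, the 5 ppm arrays lay at -8.24 to 0.49. The arrays at 0 ppm lay at -26.1 to -14.4, those at 1 ppm at -29.7 to -14.1 and those at 10 ppm at 11.7 to 22.6. The 5 ppm arrays thus fell between the lower doses and 10 ppm with no overlap.

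Promoter stretches of some of the higher genes are shown first. The ISRE core was more frequent among the higher genes than over all measured genes, and the E2F site among those of DNA replication. Promoter windows of 250 bases before to 50 after the start came from RefSeq on GRCm38.p6, and 156 of the 194 higher genes had one. The ISRE core was searched as GAAANNGAAA on both strands, and overlapping matches were allowed. It stood in the windows of 35 of the 156 higher genes (22.4%), of 16 of 32 called genes of the 6 interferon lists (50%), and of 488 of 13605 measured genes with a window (3.59%). Outside these lists 19 of 124 higher genes (15.3%) had it. The windows of Oasl1, Oasl2, Ifit2 and Cmpk2, which also rose strongly, did not hold it. The 6 stretches below were chosen from strongly rising genes that have the core, and capitals mark the ISRE core on either strand.
Ifit1 (chr19:34640750-34640848, + strand): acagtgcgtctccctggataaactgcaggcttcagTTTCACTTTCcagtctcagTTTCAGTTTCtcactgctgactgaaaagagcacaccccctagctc
Ifit3 (chr19:34583338-34583451, + strand): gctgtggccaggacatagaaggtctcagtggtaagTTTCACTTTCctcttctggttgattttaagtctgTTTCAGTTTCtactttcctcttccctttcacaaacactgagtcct
Rsad2 (chr12:26456528-26456607, − strand): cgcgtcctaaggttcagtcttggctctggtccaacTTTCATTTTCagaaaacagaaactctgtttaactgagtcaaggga
Oas1g (chr5:120887581-120887666, − strand): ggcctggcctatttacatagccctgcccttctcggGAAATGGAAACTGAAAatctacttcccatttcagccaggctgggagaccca
Apol9a (chr15:77411089-77411174, − strand): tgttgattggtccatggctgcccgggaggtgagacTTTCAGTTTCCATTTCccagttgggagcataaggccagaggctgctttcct
Cxcl10 (chr5:92349058-92349137, − strand): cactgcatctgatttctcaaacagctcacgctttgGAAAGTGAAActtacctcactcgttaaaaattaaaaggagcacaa

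The E2F site was searched as TTTCCCGC, TTTCGCGC, TTTGCCGC or TTTGGCGC on both strands. It stood in the windows of 8 of 14 called replication and nucleotide supply genes (57.1%), of 13 of the 156 higher genes (8.33%), and of 515 of the 13605 measured genes (3.79%). None of the 14 held the ISRE core, and 1 of the 32 called interferon-induced genes held the E2F site. The 8 were Mcm3, Mcm5, Mcm6, Cdc6, Cdt1, Pole2, Lig1 and Uhrf1. They were also 8 of the 13 higher genes with the site, so the share among the 156 rested mainly on them. A match is a description of the letters in the window, and binding was not measured. The 4 stretches below have the site in capitals, with both matches of Mcm5 overlapping.
Mcm5 (chr8:75109321-75109402, + strand): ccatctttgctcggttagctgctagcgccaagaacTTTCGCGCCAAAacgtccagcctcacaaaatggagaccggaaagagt
Cdc6 (chr11:98907978-98908055, + strand): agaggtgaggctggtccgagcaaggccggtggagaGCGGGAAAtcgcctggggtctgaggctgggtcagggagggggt
Cdt1 (chr8:122568012-122568064, + strand): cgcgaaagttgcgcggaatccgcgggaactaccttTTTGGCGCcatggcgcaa
Uhrf1 (chr17:56304093-56304170, + strand): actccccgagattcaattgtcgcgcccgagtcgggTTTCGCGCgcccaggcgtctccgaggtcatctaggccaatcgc

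None of the 7 interferon ligands measured passed the limma test at 5 ppm, with 1 at an unadjusted p under 0.05. Ifnb1, the single interferon-beta gene, averaged 3.16 in both groups and differed by 0.00 (SE 0.09, adjusted p = 1). Ifng, made by T and NK cells, averaged 3.11 at 5 ppm and 3.18 at 0 ppm. The 5 alpha interferon genes Ifna1, Ifna2, Ifna4, Ifna5 and Ifna9 had differences of -0.09 to 0.20. Each array's highest nonspecific-hybridisation control, a probe set that should meet no mouse transcript, served as a mark of dimness. It ran from 4.57 to 6.43 over the 5 ppm arrays and from 5.90 to 6.34 over the 0 ppm arrays. Ligand signals on the 10 arrays lay under it except Ifna2 on 5 ppm replicate 4, at 4.80. Signals this low cannot show whether a ligand was made.

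The 6 interferon receptor genes had differences of -0.13 to 0.02, and none passed, also at an unadjusted p under 0.05 (0 by limma). Ifnar1 and Ifnar2, the chains of the type I interferon receptor, averaged 7.38 and 9.42 at 5 ppm, against 7.40 and 9.45 at 0 ppm. Ifngr1 averaged 8.99 at 5 ppm and 9.13 at 0 ppm. The receptor genes were thus well measured in both groups, unlike the ligands.

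Downstream of the receptors, 1 of 5 kinases and STATs and 2 of 8 interferon regulatory factors rose. Irf7, the factor that amplifies type I interferon production, had signals of 9.66, 9.54, 8.88, 9.71 and 9.57 at 5 ppm, against 5.82, 5.81, 6.12, 6.32 and 6.50 at 0 ppm. The lowest 5 ppm array, replicate 3, still stood over 2 log2 units above the highest 0 ppm array. Its log2 difference was 3.36 (SE 0.18, adjusted p = 1.76e-15), at least 9.37-fold. Folds given as "at least" set any 0 ppm array below its highest nonspecific control to that control, as 3 of the 5 were for Irf7. Stat2, which joins Irf9 on the ISRE, rose by 1.39 (SE 0.18, adjusted p = 5.16e-06). Irf9 itself rose by 0.93 (SE 0.15), with means of 9.30 ± 0.18 at 5 ppm and 8.37 ± 0.0975 at 0 ppm (SD, n = 5 each).

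Of 14 sensors and adaptors of foreign nucleic acid, 5 rose, and the list's median difference was 0.40. Dhx58, a regulator of the RIG-I family of RNA sensors, had 8.63, 8.42, 7.75, 8.43 and 8.41 at 5 ppm and 5.96, 5.31, 5.71, 5.31 and 5.83 at 0 ppm. The groups were far apart, at a log2 difference of 2.70 (SE 0.18, at least 4.76-fold). Zbp1, a sensor of Z-form nucleic acid, rose by 2.33. Ddx58, which encodes RIG-I, rose by 1.17 to 8.46 at 5 ppm from bright signals, against 7.28 at 0 ppm (2.26-fold). Ifih1, which encodes MDA5, and Ddx60 rose by 1.22 and 1.17. The Ifih1 call was lost without 5 ppm replicate 4 or without 0 ppm replicate 1 or 3 (adjusted p up to 0.0668), and also without the arrays with high hepatocyte markers (0.0565).

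The IFIT genes, whose proteins bind viral RNA with foreign ends, rose in 4 of 5 cases with a list median of 2.61. Ifit3 had 11.51, 11.02, 10.89, 11.62 and 11.33 at 5 ppm, against 8.53, 8.33, 8.72, 8.92 and 8.83 at 0 ppm, all of them well above the controls. This is a 6.09-fold difference (log2 2.61, SE 0.20, adjusted p = 2.12e-11). The others were dimmer in clean air, and all of their 5 ppm arrays lay above all of their 0 ppm arrays. Ifit1 rose by 3.43 (SE 0.31, at least 9.92-fold), Ifit2 by 2.68 (SE 0.42, at least 4.15-fold) and Ifit1bl1 by 2.20 (SE 0.25, at least 4.22-fold).

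Genes of the OAS family, whose products make the messenger that activates RNase L or act as its inactive relatives, rose in 6 of 7 cases. Oas1g had 10.28, 10.22, 9.56, 10.37 and 10.00 at 5 ppm and 7.11, 7.08, 7.14, 7.04 and 7.34 at 0 ppm. The clean-air values lay close together, and the groups far apart (log2 2.95, SE 0.15, 7.70-fold, adjusted p = 3.87e-16). Oasl2 rose 7.84-fold, and Oasl1 by a log2 difference of 3.47 (at least 4.55-fold). Oas2 rose by 2.10, Oas1b by 0.83 and Oas3 by 0.68, all 3 from clean-air signals under the controls, and Oas2 was at least 2.07-fold higher. Oas3 no longer passed without the arrays with high hepatocyte markers (adjusted p = 0.0937).

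Other antiviral effectors rose in 10 of 18 cases, with a list median of 0.53 and a range of -0.51 to 3.57. Apol9a, an apolipoprotein L gene, had 8.57, 8.54, 7.82, 9.01 and 8.36 at 5 ppm, against 5.26, 4.26, 5.37, 4.85 and 4.72 at 0 ppm, where no array reached the controls. Its log2 difference of 3.57 (SE 0.20, at least 5.22-fold) was the largest of the named genes. Rsad2, which encodes viperin, had 9.93, 9.20, 8.95, 9.80 and 9.42 at 5 ppm and 6.65, 6.22, 6.67, 7.13 and 7.65 at 0 ppm, a 6.05-fold rise. Its neighbour on the chromosome, Cmpk2, a mitochondrial nucleotide kinase, rose 4.44-fold. The dynamin-like GTPase Mx1 rose by 3.18 (SE 0.26, at least 2.78-fold) and Mx2 by 1.08. Trim30a, Adar, an RNA-editing enzyme, and Trim25, a ubiquitin ligase that acts on RIG-I, rose by 1.37, 1.03 and 0.60. Trim25 lost its call without 5 ppm replicate 4 (adjusted p = 0.062) and without the arrays with high hepatocyte markers (0.105).

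In the ISG15 system, which attaches the ubiquitin-like ISG15 to proteins, 3 of 4 measured genes rose. Usp18, which removes the tag and restrains interferon signalling, had 10.83, 10.57, 9.93, 10.70 and 10.36 at 5 ppm, against 8.08, 8.17, 8.04, 8.07 and 8.05 at 0 ppm. The clean-air arrays lay close together, and the rise was 5.26-fold (SE 0.20 on the log2 scale). The ligase Herc6 rose by 1.40 and the activating enzyme Uba7 by 0.78.

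A further list of interferon-induced genes with mixed functions rose in 15 of 18 cases, with a median of 0.91. Lgals3bp, a secreted galectin ligand, had 10.92, 10.93, 10.49, 11.10 and 10.97 at 5 ppm and 9.59, 9.43, 9.43, 9.08 and 9.31 at 0 ppm (2.86-fold, adjusted p = 4.43e-12). Rtp4 rose 3.43-fold and Xaf1, an antagonist of apoptosis inhibitors, 2.77-fold. The mono-ADP-ribosyltransferases Parp9 and Parp12 rose 2.24-fold and 2.09-fold, and Dtx3l, the partner of Parp9, rose 2.06-fold. Sp100 of nuclear bodies rose by 1.17, and the galectin Lgals9 by 0.98.

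GTPases of the kind that interferon-gamma induces most strongly rose in 7 of 13 cases with a median of 1.02. These proteins coat the vacuoles of intracellular pathogens. Tgtp1 had 11.48, 11.11, 11.07, 11.50 and 11.44 at 5 ppm, against 8.92, 9.71, 10.03, 9.21 and 10.28 at 0 ppm, a 3.24-fold rise from a clean-air group that itself spread over more than 1 log2 unit. Iigp1 rose by 2.02 (SE 0.38), Irgm1 2.93-fold, Gbp3 by 1.5, Igtp 2.31-fold and Ifi47 2.05-fold. Irgm2 rose 2.03-fold, a call lost without 5 ppm replicate 1 or 4, without 0 ppm replicate 1 or 4 and without the arrays with high hepatocyte markers (adjusted p up to 0.158). None of 7 other interferon-gamma targets passed by limma, with 1 at an unadjusted p under 0.05. Among those, Cd274, the checkpoint ligand PD-L1, averaged 7.25 at 5 ppm and 6.70 at 0 ppm (adjusted p = 0.417), and Socs1 averaged 3.97 and 3.62.

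Over the 6 lists of interferon-induced genes together, 45 of 65 measured members rose, 0 fell, and 61 had positive differences. The median was 0.93, against 0.00 over all genes. Leaving out single arrays gave 39 to 46 higher members. Within the 5 ppm group, replicate 3 had the lowest signal for 35 of the 45 genes and replicate 2 for the other 10. Replicate 4 had the highest for 21. Averaged over the 45, replicate 3 exceeded the clean-air mean by 1.21 log2 units and replicate 4 by 1.80.

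**Figure D2:**
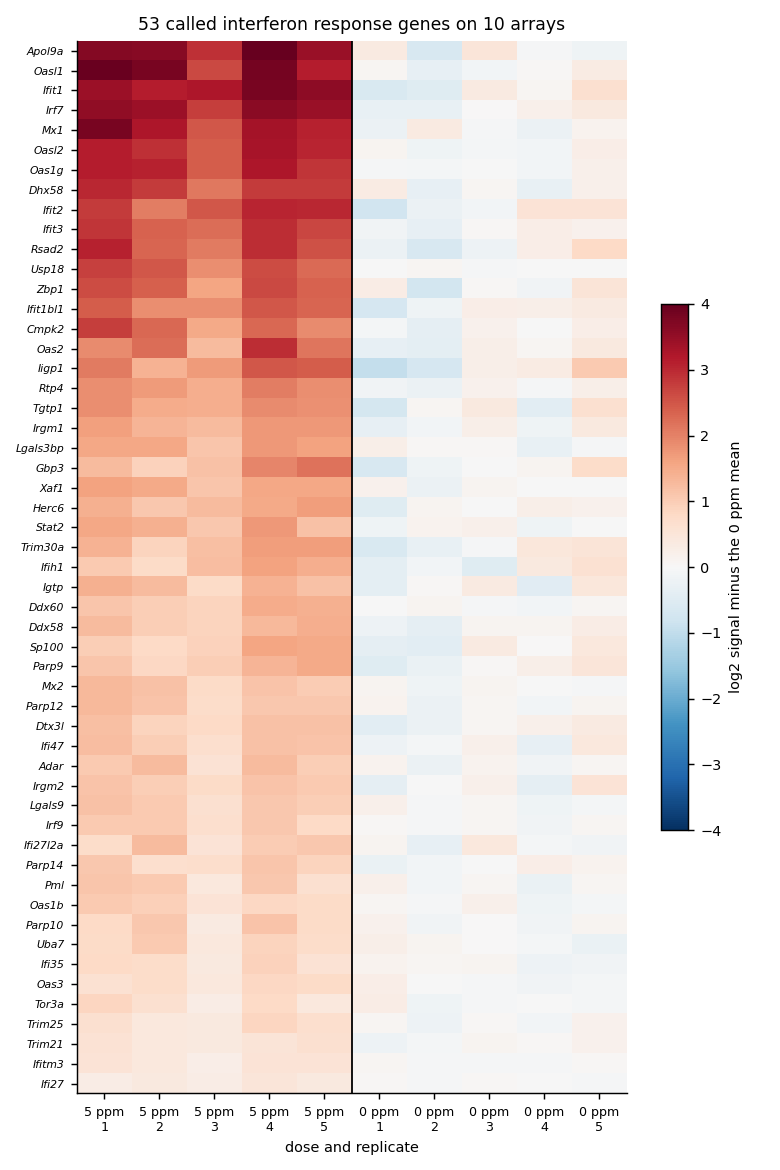
Rows are 53 called interferon response genes (the 6 lists with called sensors, regulatory factors and Stat2), columns are the 5 ppm and 0 ppm arrays, and colour is log2 signal minus the gene's 0 ppm mean. All 5 columns at 5 ppm are red for nearly every gene, and replicate 3 is the palest of them.

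Chemokines and antigen presentation moved in a few genes. Cxcl10, which draws T cells through the receptor CXCR3, had 8.46, 7.42, 6.43, 8.07 and 6.88 at 5 ppm, against 4.28, 4.56, 4.05, 4.27 and 4.47 at 0 ppm. The 5 ppm arrays spread over 2 log2 units but all lay above clean air (log2 3.13, SE 0.39, at least 2.60-fold, adjusted p = 1.51e-06). It was the only one of 3 CXCR3 chemokines to pass. Of 18 other chemokines 3 rose: Ccl12 by 2.08 (SE 0.30), Ccl8 by 1.23 (SE 0.25) and Ccl7 by 1.09 (SE 0.28). Ccl7 lay under the controls on all 10 arrays and passed with every array in (adjusted p = 0.0453) but in only 1 of 10 fits that left 1 array out. In the class I pathway Nlrc5, its transcriptional activator, rose by 1.20 and Psmb8, an immunoproteasome subunit, 1.61-fold, 2 of 12 genes. Of the 12, 11 had positive differences, 8 had an unadjusted p under 0.05 and the median was 0.30. The count was 5 without 5 ppm replicate 3, 6 without 0 ppm replicate 1, 7 without the 120 ppm arrays and 8 with array weights. Without the arrays with high hepatocyte markers it was 1, as Nlrc5 no longer passed (difference 1.17, adjusted p = 0.0613). None of 8 MHC class II genes passed by limma, 0 of them also at an unadjusted p under 0.05, and their median was -0.12.

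Markers of immune cells had 0 members past the threshold. Over 5 of 7 plasmacytoid dendritic cell markers, the list mean ran from 5.89 to 6.29 at 5 ppm and from 5.97 to 6.33 at 0 ppm. Siglech and Bst2 of that list were not measured. Over 6 conventional dendritic cell markers the mean ran from 5.05 to 5.25 at 5 ppm and from 5.23 to 5.41 at 0 ppm, with 2 at an unadjusted p under 0.05 by limma. Over 9 neutrophil markers it ran from 5.77 to 6.66 at 5 ppm and from 5.77 to 6.57 at 0 ppm. Over 12 monocyte and interstitial macrophage markers it ran from 6.66 to 7.12 at 5 ppm and from 6.62 to 7.25 at 0 ppm, and 6 of the 12 had positive differences. The part of these cells in the results above was not tested.

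**Figure D3:**
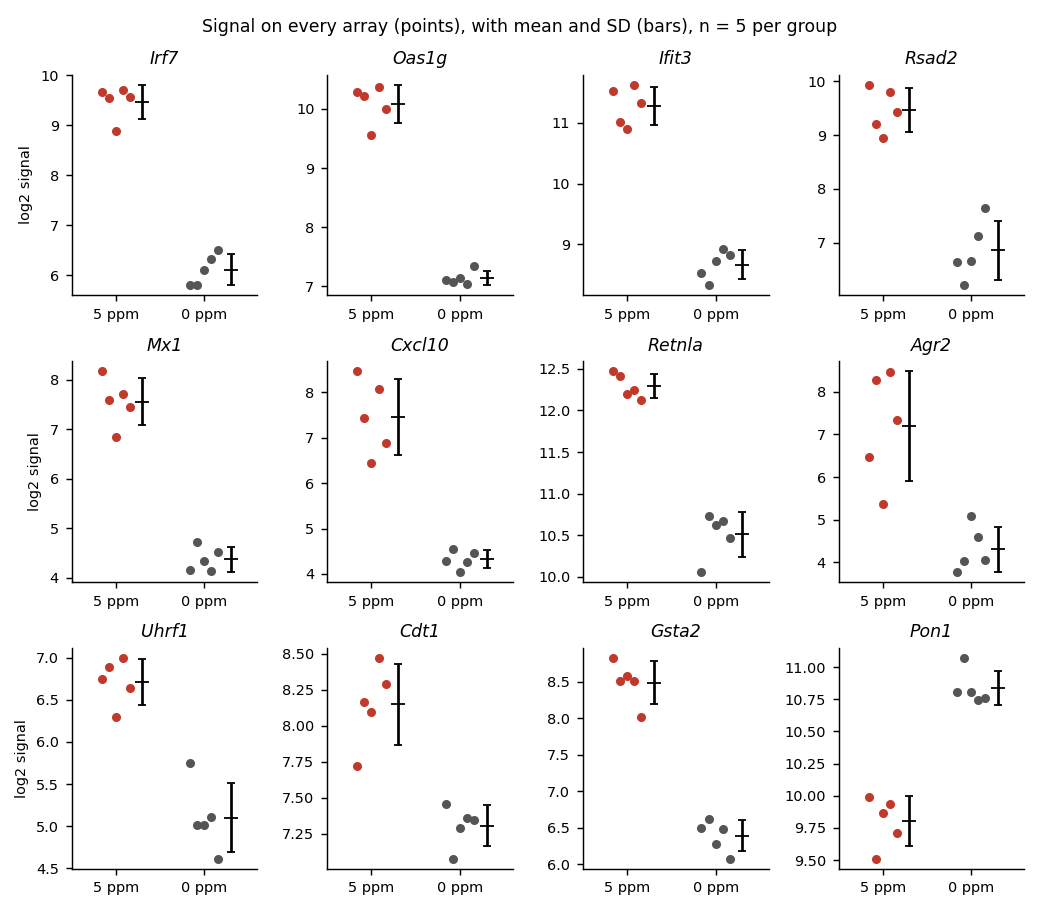
Each panel shows the log2 signal of 1 gene on the 5 arrays at 5 ppm (red, left) and the 5 at 0 ppm (grey, right), with the group mean and SD beside the points. The groups overlap in none of the 12 panels; Pon1 is the panel in which the 5 ppm arrays lie lower, and Agr2 has the widest spread.

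Genes of DNA replication had smaller differences than the antiviral genes, and many lay under the controls in clean air. Among 19 genes that license and fire origins, 7 rose and all 19 had positive differences, with a median of 0.46. Cdt1, which loads the MCM helicase, had 7.72, 8.17, 8.10, 8.47 and 8.29 at 5 ppm, against 7.46, 7.08, 7.29, 7.36 and 7.35 at 0 ppm (1.79-fold, adjusted p = 7.94e-05). Its partner Cdc6 rose by 0.92, the helicase component Gins2 by 0.78, and the helicase subunits Mcm5, Mcm6, Mcm2 and Mcm3 by 0.88, 0.67, 0.67 and 0.58. Mcm6 and Mcm2 were bright enough for a fold, 1.59 for each. The calls of Mcm2, Mcm3 and Mcm6 were each lost when certain single arrays were left out, among them 5 ppm replicate 4, and without the arrays with high hepatocyte markers (adjusted p of 0.130, 0.309 and 0.137). In that setting their differences were 0.64, 0.50 and 0.69, close to those with every array in. Gins2 was lost there too (difference 0.77, adjusted p = 0.0757).

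At the replication fork 5 of 26 genes rose. Uhrf1, which guides maintenance of DNA methylation to new strands, had 6.75, 6.89, 6.30, 6.99 and 6.64 at 5 ppm and 5.75, 5.02, 5.01, 5.10 and 4.61 at 0 ppm (log2 1.61, SE 0.17, adjusted p = 6.66e-08, at least 1.56-fold). DNA ligase Lig1 rose 1.65-fold, the clamp loader subunit Rfc5 by 0.75, the polymerase subunit Pole2 by 0.61 and the flap nuclease Fen1 by 0.59. Fen1 lost its call in 8 and Pole2 in 6 of the 10 fits that left out 1 array. In nucleotide supply 3 of 9 genes rose, thymidine kinase Tk1 by 1.22, the ribonucleotide reductase subunit Rrm2 by 1.13 and Dck by 0.52. The Dck call was lost without 5 ppm replicate 4 or 5, without 0 ppm replicate 2 or 3 (adjusted p up to 0.0996) and without the arrays with high hepatocyte markers (difference 0.53, adjusted p = 0.0909).

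Together, 15 of 54 replication and nucleotide supply genes rose and 52 had positive differences, with a median of 0.32. Without 5 ppm replicate 4 the count was 9, without the arrays with high hepatocyte markers it was 8, and among genes above the nonspecific controls on all 5 ppm arrays it was 8. Averaged over each array, these 54 genes ran from 6.40 to 6.57 at 5 ppm and from 6.00 to 6.22 at 0 ppm, so the group levels did not overlap. This was not particular to replication genes, as it also held for some lists with 0 called members. Ribosome biogenesis genes ran from 6.93 to 6.99 at 5 ppm and from 6.82 to 6.88 at 0 ppm. Squamous repair and keratin genes ran from 7.44 to 7.95 and from 7.24 to 7.42.

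Of 45 genes of mitosis and the spindle 4 rose, all from signals under the controls in clean air: Cdca5, which protects cohesion, by 1.32, the kinase Pbk by 1.24, Ect2 by 0.97 and topoisomerase Top2a by 0.97. The list median was 0.22, and 41 differences were positive. Cdk1, the mitotic kinase, rose by 1.16 and E2f8, a repressor of the E2F family, by 0.50, 2 of 23 cyclins, kinases and E2F genes. E2f8 passed only without 5 ppm replicate 2 or 3 or without 0 ppm replicate 4 among the 10 fits that left out 1 array (adjusted p up to 0.141). Its call was also lost without the arrays with high hepatocyte markers (0.146), with arrays centred on their median and with quantile normalisation repeated. Ect2 lost its call without 5 ppm replicate 4 (adjusted p = 0.0541) and Top2a without the arrays with high hepatocyte markers (0.0535). Mki67, the common marker of cycling cells, averaged 3.65 at 5 ppm and 3.66 at 0 ppm, under the controls on every array. None of 14 DNA repair genes and none of 19 p53 targets passed by limma, with 2 and 1 at an unadjusted p under 0.05. Their medians were 0.14 and -0.02.

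**Figure D4:**
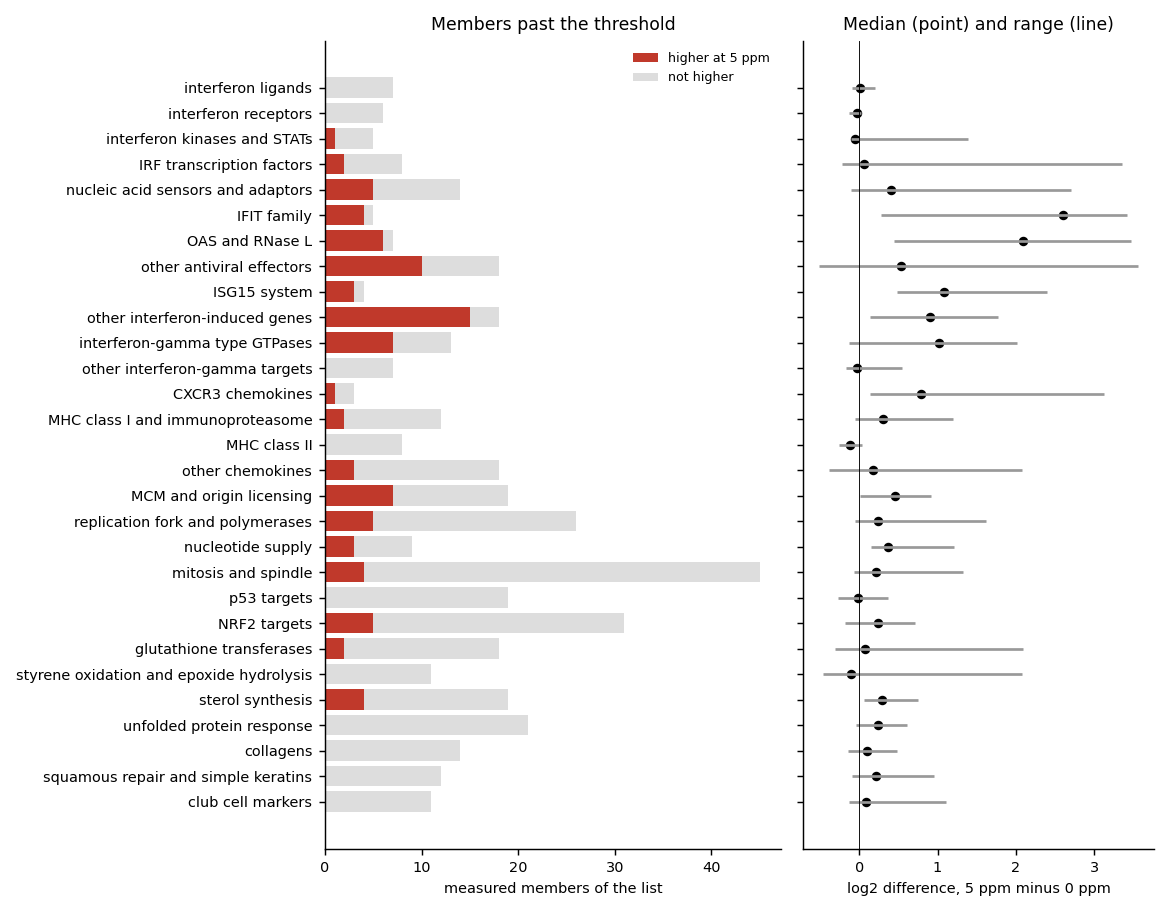
Left, measured members of 29 gene lists, with those higher at 5 ppm in red and the others in grey; right, the median (point) and range (line) of the log2 difference, 5 ppm minus 0 ppm, in the same lists. The IFIT and OAS lists have medians above 2, the replication lists lie just above 0, and interferon ligands and receptors lie at 0.

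None of 11 genes of styrene oxidation and epoxide hydrolysis passed by limma, with 1 at an unadjusted p under 0.05. Their differences ran from -0.47 to 2.09 with a median of -0.11. Cyp2f2 had 13.18, 13.17, 13.05, 13.05 and 13.12 at 5 ppm, against 13.19, 13.31, 13.25, 13.23 and 13.21 at 0 ppm. The difference of -0.13 (SE 0.08) did not pass (adjusted p = 0.964). Cyp2a5, another lung P450, differed by 2.09 (SE 0.65, adjusted p = 0.166), its clean-air arrays running from 6.56 to 9.68. Cyp2e1 and Ephx1, the microsomal epoxide hydrolase, averaged 7.31 and 10.52 at 5 ppm and 7.72 and 10.64 at 0 ppm.

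Of 31 targets of NRF2, the factor that induces antioxidant genes, 5 rose with a list median of 0.24, and of 6 NRF2 regulators 0 passed by limma, also at an unadjusted p under 0.05. Gpx2, a glutathione peroxidase of epithelia, had 10.10, 10.18, 9.68, 10.12 and 9.66 at 5 ppm and 9.10, 9.51, 9.38, 9.20 and 9.01 at 0 ppm (1.63-fold, adjusted p = 0.00715). Carbonyl reductase Cbr3 rose 1.54-fold, the aldo-keto reductase Akr1b8 1.6-fold, Gclm, which limits glutathione synthesis, 1.24-fold, and the quinone reductase Nqo1 by 0.70. Without 0 ppm replicate 4 or 5 there were 2 such targets, and 3 without 5 ppm replicate 2 or 4, without the arrays with high hepatocyte markers or with arrays centred on their median. Nfe2l2, which encodes NRF2, averaged 9.99 at 5 ppm and 9.85 at 0 ppm.

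Of 18 glutathione transferases, which conjugate epoxides, 2 rose. Gsto1 had 12.17, 12.57, 11.87, 12.40 and 12.23 at 5 ppm, against 11.14, 11.62, 11.55, 11.30 and 11.04 at 0 ppm (1.89-fold). Gsta2 rose 4.28-fold by its brightest probe set, which averaged 8.49 ± 0.29 at 5 ppm and 6.40 ± 0.22 at 0 ppm (SD, n = 5 each). The other Gsta2 probe set differed by 0.03, so the 2 probe sets disagree. The carboxylesterase Ces1g had 8.07, 7.75, 7.61, 7.11 and 6.97 at 5 ppm and 6.18, 5.47, 5.78, 5.58 and 4.99 at 0 ppm (log2 1.90, SE 0.27, at least 2.68-fold).

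Only 4 genes fell. Pon1, a serum paraoxonase, had 9.99, 9.51, 9.87, 9.94 and 9.71 at 5 ppm, against 10.81, 11.07, 10.80, 10.75 and 10.76 at 0 ppm, a 2.05-fold fall (log2 -1.03, SE 0.17, adjusted p = 0.000148). Ldhb, the heart-type lactate dehydrogenase subunit, fell 1.32-fold to 10.48 at 5 ppm, against 10.89 at 0 ppm. Cbs, which makes cystathionine, and the transcription factor Pax1 fell by 0.65 and by 0.37 from signals mostly or wholly under the controls, so no fold is given. The lower count was 2 without 5 ppm replicate 4 or without 0 ppm replicate 2. Single-array fits lost the calls of Cbs, Ldhb and Pax1 at times, and Pon1 kept its own in all 10. Without the arrays with high hepatocyte markers Cbs no longer passed (adjusted p = 0.0632).

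A few secreted epithelial and inflammatory products also rose. Retnla, a resistin-like product of airway epithelium and macrophages, had 12.47, 12.41, 12.20, 12.25 and 12.12 at 5 ppm and 10.06, 10.74, 10.63, 10.68 and 10.46 at 0 ppm (3.42-fold, adjusted p = 4.15e-09), 1 of 11 type 2 inflammation genes. Il33, an alarmin of epithelium, rose 1.72-fold, 1 of 18 cytokines, and Lcn2, an iron-binding acute phase protein, 1.67-fold, 1 of 10 acute phase genes. Il33 lost its call in 5 of the 10 fits that left out 1 array and without the arrays with high hepatocyte markers, where its difference was 0.87 (adjusted p = 0.0666) against 0.78 with every array in. None of 17 immediate early genes and none of 17 clock genes passed by limma, with 2 and 0 at an unadjusted p under 0.05.

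Agr2, an endoplasmic reticulum protein that helps mucins to fold, had 6.48, 8.28, 5.37, 8.47 and 7.35 at 5 ppm, against 3.77, 4.02, 5.09, 4.58 and 4.06 at 0 ppm (log2 2.88, SE 0.58, at least 2.16-fold, adjusted p = 0.00332). All 5 ppm arrays lay above clean air, but they spread over 3 log2 units, with replicates 2 and 4 highest and replicate 3 lowest. The other Agr2 probe set differed by 1.89. Agr2 was the only one of 15 goblet cell genes to pass, while 14 had positive differences, 6 had an unadjusted p under 0.05 and the median was 1.01. The mean over the 15 ran from 5.97 to 7.70 at 5 ppm and from 5.11 to 6.57 at 0 ppm, so the groups overlapped. Ltf, a gland and neutrophil product that did not pass (difference 2.02, adjusted p = 0.387), was also highest on replicates 2 and 4 and lowest on replicate 3 at 5 ppm, at 9.0, 11.45, 8.33, 11.14 and 10.42. The mean over 4 adipocyte markers ran from 5.26 to 7.56 at 5 ppm and from 4.86 to 7.36 at 0 ppm, with 0 of 4 past the threshold. Their part in the Agr2 result was not tested.

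Of 19 sterol synthesis genes 4 rose and all 19 had positive differences, with a median of 0.29. Lanosterol demethylase Cyp51 rose 1.67-fold, Fdps 1.48-fold, squalene epoxidase Sqle 1.45-fold and Tm7sf2 by 0.53. Sqle had 8.81, 8.57, 8.58, 8.63 and 8.65 at 5 ppm, against 7.98, 8.40, 8.28, 8.07 and 7.83 at 0 ppm, and was called in all 10 fits that left out 1 array. Cyp51 was called in 1 of these fits, and the list's count fell to 1 without 5 ppm replicate 1, 2 or 3 or without 0 ppm replicate 4 or 5, and to 2 without 5 ppm replicate 4, without 0 ppm replicate 1 or without the arrays with high hepatocyte markers. None of 21 genes of the unfolded protein response, 11 heat shock genes or 14 collagens passed at 5 ppm by limma. At an unadjusted p under 0.05 there were 10, 0 and 3 of these. Of 12 squamous repair and keratin genes and 24 ribosome biogenesis genes none passed by limma. Their unadjusted counts were 5 and 1. Over all 17097 genes the unadjusted count was 1103.

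Outside the lists, Uchl1, a ubiquitin hydrolase of neurons and neuroendocrine cells, had 7.77, 7.72, 7.80, 7.39 and 7.27 at 5 ppm and 5.80, 5.28, 5.62, 5.29 and 5.4 at 0 ppm (log2 2.11, SE 0.13, adjusted p = 7.43e-14, at least 2.85-fold). Afp, the fetal serum protein alpha-fetoprotein, had 7.41, 7.25, 7.04, 7.11 and 6.55 at 5 ppm, against 4.73, 5.24, 4.84, 4.72 and 4.80 at 0 ppm. All 0 ppm arrays lay under the controls (log2 2.21, at least 1.99-fold), and the 4 other Afp probe sets differed by -0.03 to 1.41. Alb, the main hepatocyte product, had 4.66, 4.43, 4.44, 7.01 and 4.31 at 5 ppm and 4.94, 4.38, 11.19, 10.47 and 6.04 at 0 ppm. Phf11a rose 3.87-fold, the ubiquitin ligase Rnf213 3.09-fold and Trim30d by 2.06 (at least 2.82-fold).

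Higher genes often lay side by side. In the order of measured genes along the chromosomes of the RefSeq annotation, 37 of the 194 (19.1%) stood directly beside another higher gene, in 17 runs, and 341 of 16861 other measured genes (2.02%) stood beside a higher gene. The runs of 3 genes were Ifit2, Ifit3 and Ifit1bl1, then Parp14, Dtx3l and Parp9, and Rnf31, Irf9 and Rec8. Pairs included Oasl2 with Oasl1, Oas2 with Oas3, Rsad2 with Cmpk2, Igtp with Irgm2, Tgtp1 with Ifi47 and Ccl12 with Ccl8. Relatives in such runs can share probe sequence, and its part in the count was not tested.

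Against 1 ppm, 275 genes (1.61%) were higher at 5 ppm and 61 (0.357%) lower. The split depended on scaling: with arrays centred on their median it was 175 higher and 187 lower, with quantile normalisation repeated 240 and 117, with array weights 606 and 346, and without the 2 arrays whose titles share a number 261 and 114. At a fold of at least 1.5 it was 182 and 10. This test and the clean-air test share the 5 ppm arrays and the variance estimated over all 35 arrays. Among interferon-induced genes 51 of 65 were higher at 5 ppm than at 1 ppm, and 23 of 54 replication and nucleotide supply genes were. Oas1g averaged 10.09 at 5 ppm and 7.12 at 1 ppm (log2 2.96, adjusted p = 3e-16), and Apol9a 8.46 and 4.39. Outside the lists Phf11a (2.06), Rnf213 (1.54), Uchl1 (1.84), Trim30d (2.38) and Zfp750 (1.19), an epithelial differentiation factor, had the smallest p among genes without provisional names. Retnla was 1.24 higher at 5 ppm than at 1 ppm. Agr2 (1.72, adjusted p = 0.15), Ces1g (0.52, adjusted p = 0.46), Gsto1 (0.44) and the 4 sterol genes called against 0 ppm did not pass here.

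At 10 ppm, 257 genes (1.5%) were higher than at 5 ppm and 537 (3.14%) lower. With arrays centred on their median the split was 370 higher and 264 lower, and with quantile normalisation repeated 339 and 426. Of the 65 interferon-induced genes 7 were higher at 10 ppm and 0 lower, among the 7 Mx1 by 1.0 and Rsad2 by 1.09. Irf7 averaged 9.75 at 10 ppm and 9.47 at 5 ppm, and Oas1g 10.19 and 10.09. Cxcl10 was 1.56 higher at 10 ppm, Ccl7 1.58, Retnla 0.77 and Lcn2 1.02.

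Other gene groups differed between 10 and 5 ppm. Of 14 collagens 10 were higher at 10 ppm than at 5 ppm. Timp1, an inhibitor of matrix proteases, averaged 10.92 at 10 ppm and 8.17 at 5 ppm, and the squamous gene Sprr1a 8.80 and 6.04. Cyp2f2 was 0.41 lower at 10 ppm, Ephx1 0.70 lower, Pon1 1.35 lower and Ces1g 1.25 lower. Of 18 glutathione transferases 8 were lower at 10 ppm than at 5 ppm and 0 higher. Outside the lists Serpina3n (1.47), S100a14 (1.22) and Ms4a6d (1.18) were higher, and Cldn23 (-1.03) and Elapor1 (-1.0) lower, with the smallest p. This test too shares the 5 ppm arrays and the variance estimate with the clean-air test, so the results are not independent.

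**Figure D5:**
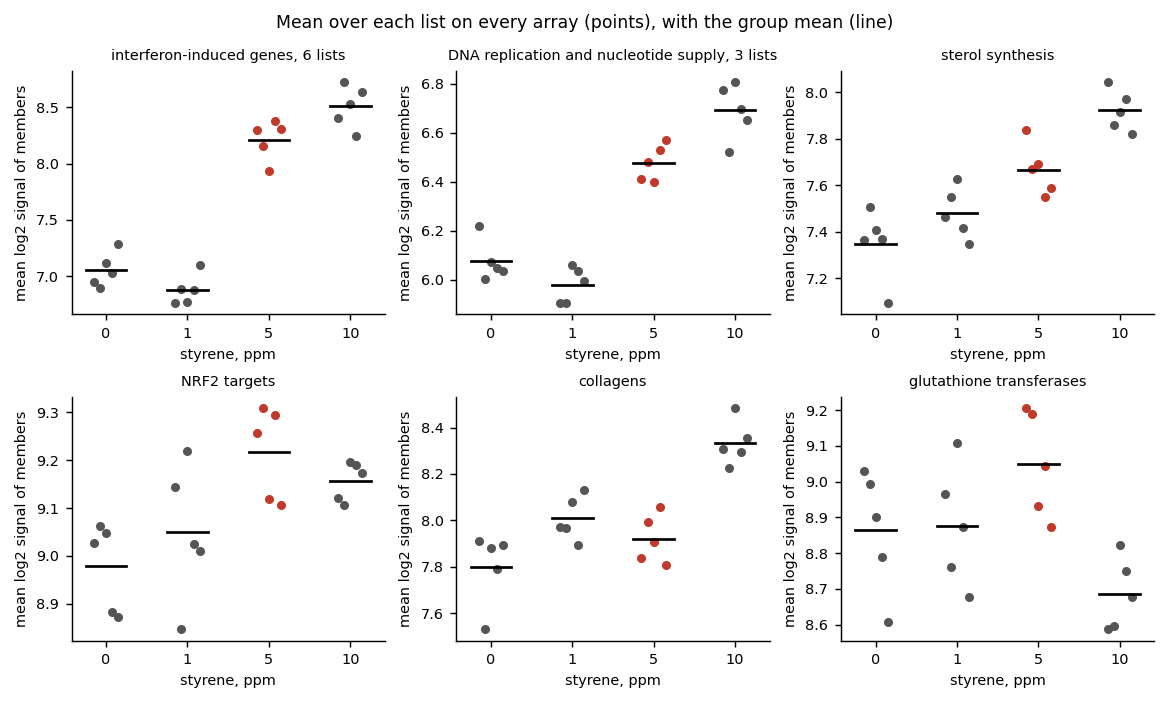
Each panel shows the mean log2 signal over the measured members of 1 list on every array at 0, 1, 5 and 10 ppm, with the group mean as a line and 5 ppm in red. Interferon-induced and replication genes step up between 1 and 5 ppm without overlap, while collagens step up between 5 and 10 ppm and the 5 ppm arrays overlap with 0 ppm.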

How the data were processed

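Affymetrix HT MG-430 PM arrays measured whole-lung RNA of 35 mice, 5 per dose. The deposited table holds log2 signals of 45141 probe sets, 104 of them controls; the submitters' processing notes name RMA and Partek, with no version or settings. Grouping followed the dose in the labels. Of the probe sets, 28898 had 1 gene in the platform annotation, 551 had several and 15588 were not listed, and only the first kind was used, giving 17097 genes by the probe set with the highest mean. Array signals have no count depth, so the 5 arrays per group limit the precision.

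limma 3.58.1 (lmFit, eBayes) in R 4.3.3 fitted 1 mean per dose over all 35 arrays (28 residual and 4.617 prior degrees of freedom), with Benjamini-Hochberg adjustment across the 17097 genes and a threshold of 0.05. Adjusted p in the text come from this fit, except those given for fits with arrays left out and for the permutation test. The same steps on simulated arrays were tested on known differences. Tables and figures used Python 3.11.15, numpy 2.4.6, pandas 2.3.3 and matplotlib 3.10.9. Members, 71 gene lists and tests were chosen with earlier results of these data known; of 1001 list entries 882 were measured, and the others were not analysed here. Named genes were the 20 largest rises and up to 10 falls without provisional names, up to 8 called members per list, the 2 smallest p in lists with no call, fixed ligand, receptor and styrene metabolism genes, and 5 unlisted genes per dose step. Other genes appear as members of the promoter and neighbour counts. Alternatives changed the arrays, variance model, weights, scaling, probe set choice, filters, thresholds and the replicate block; leaving out arrays with a hepatocyte marker mean above 7 was added after seeing the data. Promoter windows came from RefSeq (GRCm38.p6). No table of scan dates or slides was used here, so batches were not tested.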

Additional observations from a re-analysis of the deposited data

Results flagged for a closer look

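In 26 of the 396 gene and dose groups tested, 1 array stood apart from the other 4 of its dose by Dixon's ratio (critical value 0.71), and chance flags about 1 in 20 groups. On 5 ppm replicate 3 the stray values were low and belonged to interferon response genes: Irf7 at 8.88 (others 9.54 to 9.71), Dhx58 at 7.75 (8.41 to 8.63), Zbp1 at 7.45 (8.23 to 8.52), Xaf1 at 9.64 (10.05 to 10.15) and Nlrc5 at 6.41 (7.02 to 7.25). On 5 ppm replicate 4 they were Ifna2 at 4.8, Cry2 at 7.54, Siglecf at 6.43 and Alb at 7.01 (others 4.31 to 4.66). On 5 ppm replicate 1 they were Cyp51 at 8.47 and Bhlhe40 at 8.9, and on replicate 5 Mki67 at 3.92. On 0 ppm replicate 2 they were Afp at 5.24, Pon1 at 11.07, Rfc5 at 5.62, Cry2 at 8.19, Col1a1 at 6.87 and Cd3g at 5.59. On 0 ppm replicate 1 they were Oas3 at 4.62, Mcm3 at 6.35, Nfe2l2 at 9.59, Timp1 at 8.95 (others 6.88 to 7.45) and Csf1r at 8.57. On 0 ppm replicate 3 they were Ccl7 at 3.52, Cbr3 at 9.24 and Cldn23 at 6.99.

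Among the 15588 probe sets that the annotation does not list with a gene, 36 (0.231%) were higher at 5 ppm and 0 were lower by limma, with a largest log2 difference of 3.23. They entered no comparison above.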

How the results depend on the processing

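Of 198 called genes 136 passed without any 1 array, among them 38 of the 45 interferon-induced and 9 of the 15 replication genes. No named gene that passed at 5 against 0 ppm changed sign under any alternative tried. These genes were picked on the same arrays, and alternatives in threshold, filter or variance model leave the differences unchanged, so this is not separate support. With arrays centred on their median the majority of calls turned against 1 ppm (175 higher and 187 lower) and at 10 against 5 ppm (370 higher and 264 lower). Leaving out 1 array at a time gave 145 to 220 higher and 2 to 6 lower genes at 5 ppm, 240 to 373 changed genes against 1 ppm and 484 (without 10 ppm replicate 2) to 763 at 10 against 5 ppm. The same gave 39 to 46 interferon-induced, 9 to 16 replication, 3 to 6 mitosis, 2 to 6 NRF2 target and 1 to 3 sterol genes. Array weights gave 294 higher and 27 lower genes at 5 ppm, 952 changed against 1 ppm (of 336 in the fit reported) and 1896 at 10 against 5 ppm (of 794), with 23 replication, 9 mitosis and 8 NRF2 genes. Without the 120 ppm arrays there were 16 lower genes, 636 and 1428 changed genes in those dose steps, and 7 mitosis genes. Fitting only the groups compared gave 8 lower genes, 1212 at 10 against 5 ppm and 2 sterol genes. An adjusted p of 0.1 gave 7 lower, 519 and 1208, and a fold of at least 1.5 gave 2 lower, 192, 297 and 1 sterol gene. Arrays centred on their median gave 7 lower, 3 NRF2 and 2 sterol genes, and quantile normalisation 7 lower. A filter above the median level left 1 mitosis gene; one above the nonspecific controls left 0 mitosis genes by limma and 8 replication genes. Without the 2 arrays that share a title number there were 3 NRF2 and 1 sterol genes, and without arrays with high hepatocyte markers 8 replication, 3 NRF2 and 2 sterol genes. The cause of these shifts was not tested. With the replicate number as a block 209 genes were higher and 7 lower. The labels do not state that same-numbered arrays are pairs, so they were not taken as such. Deviations of same-numbered 5 ppm and 0 ppm arrays correlated at -0.227 to 0.535, and those of differently numbered arrays at -0.512 to 0.505. Dim genes limit the replication and mitosis results.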
